A study of Mus musculus with 6 samples.

Results

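Transcripts of 10 genes that act in, or are read as targets of, the YAP and TAZ pathway were examined in NMuMG, a line of epithelial cells that was derived from the mammary gland of the mouse. They were the CCN family members Ctgf, Cyr61, Wisp1 and Wisp2, the target genes Ankrd1, Amotl2 and Lats2, the coactivator genes Yap1 and Wwtr1, and the TEAD factor gene Tead1. The genes were taken by symbol, and all 10 were found among the 18512 entries of the count table and were among the 13355 that passed a minimum mean of 20 normalized counts. The study asked how 2APB (2-aminoethoxydiphenyl borate), which alters calcium entry through store-operated channels, changed the response of these cells to TGF-β, a cytokine that drives the epithelial-mesenchymal transition. Control cells were given the solvent DMSO, other cells were given TGF-β at 5 ng/ml, and the last group was given TGF-β at 5 ng/ml together with 2APB at 50 uM, for 24 h by the study's account of its results, although its methods can also be read as 2APB given before TGF-β. The study's methods state that cells were starved of serum before treatment with TGF-β. Poly(A) RNA of 2 replicates per group was sequenced, giving 6 libraries. No library held 2APB alone, so that 2APB was measured here only in the presence of TGF-β. NMuMG is 1 established line. The study's methods call the replicates biological, but neither they nor the labels say how separate the cultures were, so p-values measure the spread between these libraries, which may be technical.

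The Hippo pathway is a kinase cascade in which the MST kinases activate the LATS kinases, and LATS phosphorylates the coactivators YAP (Yap1) and TAZ (Wwtr1) so that they are held in the cytoplasm or degraded. When the cascade is low, YAP and TAZ enter the nucleus and bind the TEAD transcription factors, which place them at promoters and enhancers of target genes. Ctgf, Cyr61, Ankrd1 and Amotl2 are among the most used readouts of this activity, and Lats2 and Amotl2 are themselves inhibitors of YAP, so that their induction closes a feedback loop. CCN proteins are secreted, cysteine-rich matricellular proteins that bind integrins and growth factors, and several are also TGF-β target genes. RNA levels do not report where the YAP and TAZ proteins are.

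The sequence through which TEAD factors bind, with the core GGAATG, which is read from the opposite strand as CATTCC, was looked for in the 250 bases before the RefSeq start of each gene, on both strands. The promoter table (RefSeq, GRCm38.p6) held 6 of the 10 genes, namely Cyr61, Ankrd1, Amotl2, Lats2, Yap1 and Wwtr1. Ctgf, Wisp1, Wisp2 and Tead1 had no entry matched in it and were not searched. The core stood in 5 of the 6, with 2 matches in Ankrd1 and none in either of the Lats2 promoters, against 12.6% of all 32851 promoters of the table and 14.4% of the 27025 genes they belong to. The stretches that hold the core are printed 5′ to 3′ on the strand of the gene with the core in capitals and 10 bases on either side, since the core is what these promoters have in common, and the upstream sequence of Cyr61, the CCN gene with a promoter in the table, is given in full.
Cyr61, 250 bases, chr3:145649986-145650235, minus strand: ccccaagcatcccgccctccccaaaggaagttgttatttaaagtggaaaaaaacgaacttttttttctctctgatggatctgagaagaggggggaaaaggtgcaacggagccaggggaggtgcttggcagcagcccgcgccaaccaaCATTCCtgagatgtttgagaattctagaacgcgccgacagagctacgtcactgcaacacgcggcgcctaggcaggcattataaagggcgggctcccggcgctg
Ankrd1, farther match, chr19:36120039-36120064, minus strand: cactgccaaaGGAATGaccctctcac
Ankrd1, nearer match, chr19:36119952-36119977, minus strand: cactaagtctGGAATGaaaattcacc
Amotl2, chr9:102717729-102717754, plus strand: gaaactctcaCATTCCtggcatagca
Yap1, chr9:8004722-8004747, minus strand: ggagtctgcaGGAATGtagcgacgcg
Wwtr1, chr3:57576031-57576056, minus strand: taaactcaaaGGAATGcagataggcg

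The Cyr61, Yap1 and Wwtr1 matches lay upstream of every annotated exon of their gene (GENCODE annotation of GRCm38, the build also called mm10), whereas those of Ankrd1 and Amotl2 overlapped an annotated exon of their gene. The core ended 98 bases before the start in Cyr61, 118 and 205 bases in Ankrd1, 60 bases in Amotl2, 136 bases in Yap1 and, from the nearer of both Wwtr1 starts, 131 bases. Of the other motifs searched in the same window on both strands, none overlapping the TEAD core, the SMAD palindrome GTCTAGAC was in 0 of 6 genes (0.2% of all genes with a promoter), the AP-1 site TGAGTCA, which is read from the opposite strand as TGACTCA, in 0 of 6 (5.16%), and the serum response CArG box in 0 of 6 (1.62%). These matches describe letters in a window and not binding.

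**Figure D1:**
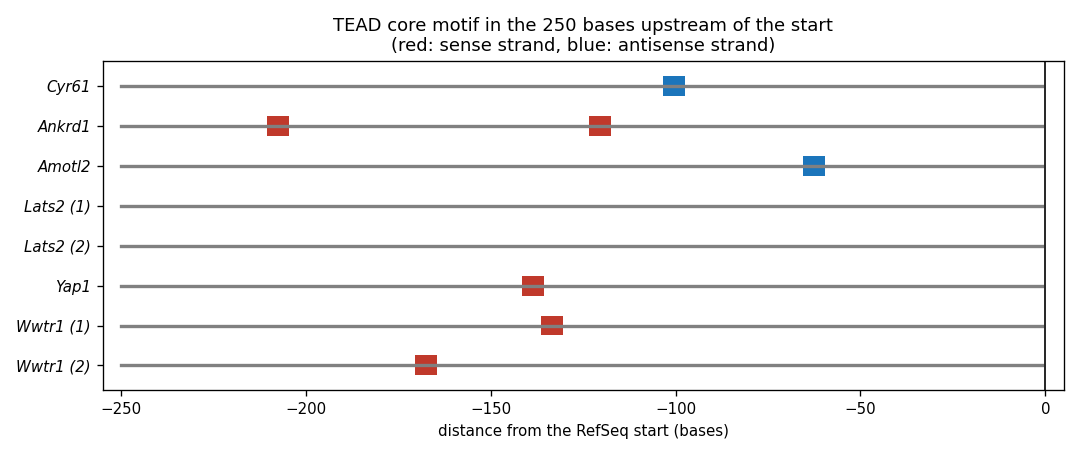
Positions of the TEAD core in the 250 bases upstream of the RefSeq start of 6 genes, as the distance in bases from the start (red, sense strand; blue, antisense strand). Numbers in brackets tell 2 starts of one gene apart; Ankrd1 holds 2 matches and the Lats2 windows hold none.

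The total of gene counts ran from 71840570 to 79473182 per library. Counts were scaled by TMM factors to the mean library and are called normalized counts, and are given as mean ± SD of n = 2. A gene was called higher or lower where its Benjamini-Hochberg FDR in edgeR's quasi-likelihood test over all 13355 genes was 0.05 or less. The biological coefficient of variation across all genes was 17.4%. The response to TGF-β was seen in Fn1 (fibronectin), which rose from 334022 ± 73.9 to 560094 ± 43421 normalized counts (log2 0.75, SE 0.07, FDR = 0.000848), and in Skil, a feedback inhibitor of SMAD signalling (log2 0.77, SE 0.22, FDR = 0.0350). Fn1 was lower with TGF-β+2APB than with TGF-β (log2 -0.33, FDR = 0.0306), and Skil was not called (log2 0.84, 95% interval 0.30 to 1.38, FDR = 0.0515). The epithelial keratin Krt8 had 243677 normalized counts with DMSO and Cdh1 (E-cadherin) 90942, while Epcam did not pass 158 counts in any library. Of the 6 epithelial markers, 2 were called higher and 3 lower with TGF-β than with DMSO.

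Of the markers of other cell types, the summed levels of those of hepatocytes and fibroblasts moved with the groups. The summed level of 5 hepatocyte markers, in CPM (counts scaled to the library total), was 739 to 813 with DMSO, 2.15 to 3.52 with TGF-β and 0.762 to 1.06 with TGF-β+2APB, and 4 of the 5 were called lower than with DMSO. The sum of the 5 fibroblast markers in the table was 1.88 to 2.20, 30.2 to 31.2 and 31.6 to 39.4 CPM in the same order, with the defining markers Dcn and Thy1 each at 0 in 3 libraries, and of the 3 that could be tested 2 were called higher with TGF-β than with DMSO and 3 with TGF-β+2APB. The sum of 5 immune markers was 5.76 to 56.0 CPM in 5 libraries and 399 in TGF-β+2APB replicate 2, where the macrophage gene Lyz2 had 29060 counts, with Cd3e at 0 in 5 libraries, and 0 of the 4 tested were called in any comparison. The 4 endothelial markers summed to at most 0.635, with Kdr and Tek each at 0 in 5 libraries. Their part in the results was not tested, but for the 10 genes each difference between TGF-β+2APB and TGF-β is also given without TGF-β+2APB replicate 2. In RNA from whole cultures, fewer cells of a type and less RNA per cell cannot be told apart.

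Among the CCN genes, Ctgf, Cyr61 and Wisp1 rose with TGF-β and rose again when 2APB was present, while Wisp2 rose with TGF-β to a level that was not called different with 2APB. Ctgf (chr10:24595442-24598683, plus strand, on GRCm38 as for each gene here), now also named Ccn2, encodes connective tissue growth factor, a promoter of matrix deposition. Its normalized counts were 43741 and 43279 in the DMSO libraries, 170358 and 150061 in those with TGF-β, and 234696 and 207851 in those with TGF-β+2APB. The groups did not overlap and stood in the order DMSO, TGF-β, TGF-β+2APB. The level was 3.68-fold higher with TGF-β than with DMSO (log2 1.88, SE 0.10, FDR = 0.000120). TGF-β+2APB was 1.38-fold higher than TGF-β (log2 0.47, SE 0.09, FDR = 0.0252), and without TGF-β+2APB replicate 2 this log2 difference was 0.55 (FDR = 0.0698), no longer called.

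Cyr61 (chr3:145646976-145649981, minus strand), or Ccn1, encodes an integrin-binding protein that promotes adhesion and migration. Its normalized counts were 11501 and 9099.8 in the DMSO libraries, 30886 and 28797 in those with TGF-β, and 60099 and 49495 in those with TGF-β+2APB. All libraries of 1 group again stood apart from those of the others, with the widest relative gap between replicates in the DMSO pair. Cyr61 was 2.90-fold higher with TGF-β than with DMSO (log2 1.53, SE 0.15, FDR = 0.000890). With 2APB added it was a further 1.84-fold higher (log2 0.88, SE 0.15, FDR = 0.0162), and the log2 difference was 1.01 (FDR = 0.0247) without TGF-β+2APB replicate 2.

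Wisp1 (chr15:66891320-66923201, plus strand), or Ccn4, was first described as a WNT1-induced gene and encodes a secreted protein linked to fibrosis. Its normalized counts were 2008 and 1933 in the DMSO libraries, 18089 and 20719.8 in those with TGF-β, and 36956 and 28674 in those with TGF-β+2APB. The groups did not overlap, and the libraries with TGF-β+2APB were farther apart than those of the other groups. The rise with TGF-β over DMSO was 9.85-fold (log2 3.30, SE 0.15, FDR = 9.28e-05). Between TGF-β+2APB and TGF-β it was 1.69-fold (log2 0.76, SE 0.14, FDR = 0.0197), with a log2 difference of 0.93 (FDR = 0.0156) without TGF-β+2APB replicate 2.

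Wisp2 (chr2:163820861-163833146, plus strand), or Ccn5, encodes the CCN protein that lacks the C-terminal domain of its relatives. It was the least abundant of the 10 genes with DMSO, at 90.5 and 74.4 normalized counts, which compares with 1154 and 1024 in the TGF-β libraries and 891 and 959 after 2APB was added. Its rise with TGF-β was the largest of the 10 on the log2 scale, 13.2-fold (log2 3.72, SE 0.15, FDR = 6.67e-05). Both libraries with 2APB lay under both with TGF-β alone, but the log2 difference of -0.23 (95% interval -0.56 to 0.09, FDR = 0.269) was not called, and was -0.29 (FDR = 0.423) without TGF-β+2APB replicate 2. Both other CCN genes of the table were too low to test. Nov (Ccn3) had 4 and 2 counts with DMSO, 0 and 2 with TGF-β alone, and 2 and 110 with 2APB added, the 110 being in the library with the high immune markers, and Wisp3 (Ccn6) had between 2 and 12 counts in every library.

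Ankrd1, Amotl2 and Lats2, target genes outside the CCN family, were higher with TGF-β than with DMSO, and Ankrd1 and Amotl2 were higher still with 2APB. Ankrd1 (chr19:36111961-36120099, minus strand) encodes a nuclear ankyrin repeat protein that responds to mechanical load. Its normalized counts were 24455 and 23390.2 in the DMSO libraries, 57184 and 70766 in those with TGF-β, and 127948 and 107198 in those with TGF-β+2APB, in groups that did not overlap. It was 2.67-fold higher with TGF-β than with DMSO (log2 1.42, SE 0.14, FDR = 0.000838). TGF-β+2APB exceeded TGF-β 1.84-fold (log2 0.88, SE 0.13, FDR = 0.0126), and the log2 difference was 0.999 (FDR = 0.0181) without TGF-β+2APB replicate 2.

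Amotl2 (chr9:102716672-102733418, plus strand) encodes an angiomotin family protein that binds YAP at cell junctions and restrains it. Its normalized counts were 15595 and 14952 in the DMSO libraries, 29378 and 28959 in those with TGF-β, and 47919 and 45012 in those with TGF-β+2APB. The replicates of each group were close to each other and far from those of the next group. Amotl2 rose 1.91-fold with TGF-β (log2 0.93, SE 0.07, FDR = 0.000339) and was 1.59-fold higher with TGF-β+2APB than with TGF-β (log2 0.67, SE 0.07, FDR = 0.00501). It was the member with the smallest FDR between TGF-β+2APB and TGF-β, and the log2 difference was 0.71 (FDR = 0.0216) without TGF-β+2APB replicate 2.

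Lats2 (chr14:57689662-57758388, minus strand) encodes a LATS kinase, which inactivates YAP and TAZ. Its normalized counts were 3300.0 and 3405 in the DMSO libraries, 5091 and 5193 in those with TGF-β, and 6196 and 5954 in those with TGF-β+2APB. The 3 groups stood in the same order as for Ctgf and did not overlap. It was 1.53-fold higher with TGF-β than with DMSO (log2 0.62, SE 0.07, FDR = 0.00134). For 2APB added to TGF-β, the log2 difference of 0.24 (95% interval 0.07 to 0.41) had an FDR of 0.0630 and was not called in that test. Of 14 alternative fits 2 called this difference, DESeq2 among them (FDR = 0.00278). Without TGF-β+2APB replicate 2 the difference was 0.27. Annotated exons of Lats2 share 2955 bases with those of Gm49361 on the same strand, a gene that has no entry of its own in the table, so the count from the shared stretch is uncertain. Exons of Ctgf share 665 bases with Gm15270 and those of Yap1 share 116 bases with Gm20416 on the opposite strand, neither of them in the table, and whether strand was used in counting is not given in the sources used here.

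The genes of the coactivators and of TEAD1 had smaller log2 differences between TGF-β and DMSO than any of the 7 target and CCN genes. Yap1 (chr9:7931999-8004596, minus strand) encodes YAP, and its normalized counts were 11882 and 11702 in the DMSO libraries, 16669.9 and 16075 in those with TGF-β, and 16632 and 15595 in those with TGF-β+2APB. Both groups with TGF-β stood above DMSO and overlapped each other. Yap1 was 1.39-fold higher with TGF-β than with DMSO (log2 0.47, SE 0.07, FDR = 0.00376), and the log2 difference between TGF-β+2APB and TGF-β was -0.02 (95% interval -0.20 to 0.15, FDR = 0.845), or 0.02 (FDR = 0.943) without TGF-β+2APB replicate 2.

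Wwtr1 (chr3:57455649-57575910, minus strand), which encodes TAZ, had normalized counts of 10824 and 10869 in the DMSO libraries, 11185 and 12396 in those with TGF-β, and 12016 and 11337 in those with TGF-β+2APB. The DMSO libraries were the lowest of the 6, and the other 4 were intermixed. The log2 difference of TGF-β from DMSO was 0.12 (95% interval -0.08 to 0.32, FDR = 0.285) and was not called, so a rise of up to 0.32 on that scale lay within the interval. That between TGF-β+2APB and TGF-β was -0.01 (95% interval -0.21 to 0.19, FDR = 0.923), and 0.03 (FDR = 0.927) without TGF-β+2APB replicate 2.

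Tead1 (chr7:112679318-112906807, plus strand), the gene of a TEAD factor through which YAP and TAZ reach DNA, had normalized counts of 8751 and 8709 in the DMSO libraries, 11996 and 13436 in those with TGF-β, and 12767 and 11854 in those with TGF-β+2APB. Both groups with TGF-β were above DMSO and overlapped each other. Tead1 was 1.46-fold higher with TGF-β than with DMSO (log2 0.54, SE 0.09, FDR = 0.00483). Its log2 difference between TGF-β+2APB and TGF-β was -0.05 (95% interval -0.26 to 0.17, FDR = 0.740), or 0.00 (FDR = 0.989) without TGF-β+2APB replicate 2.

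**Figure D2:**
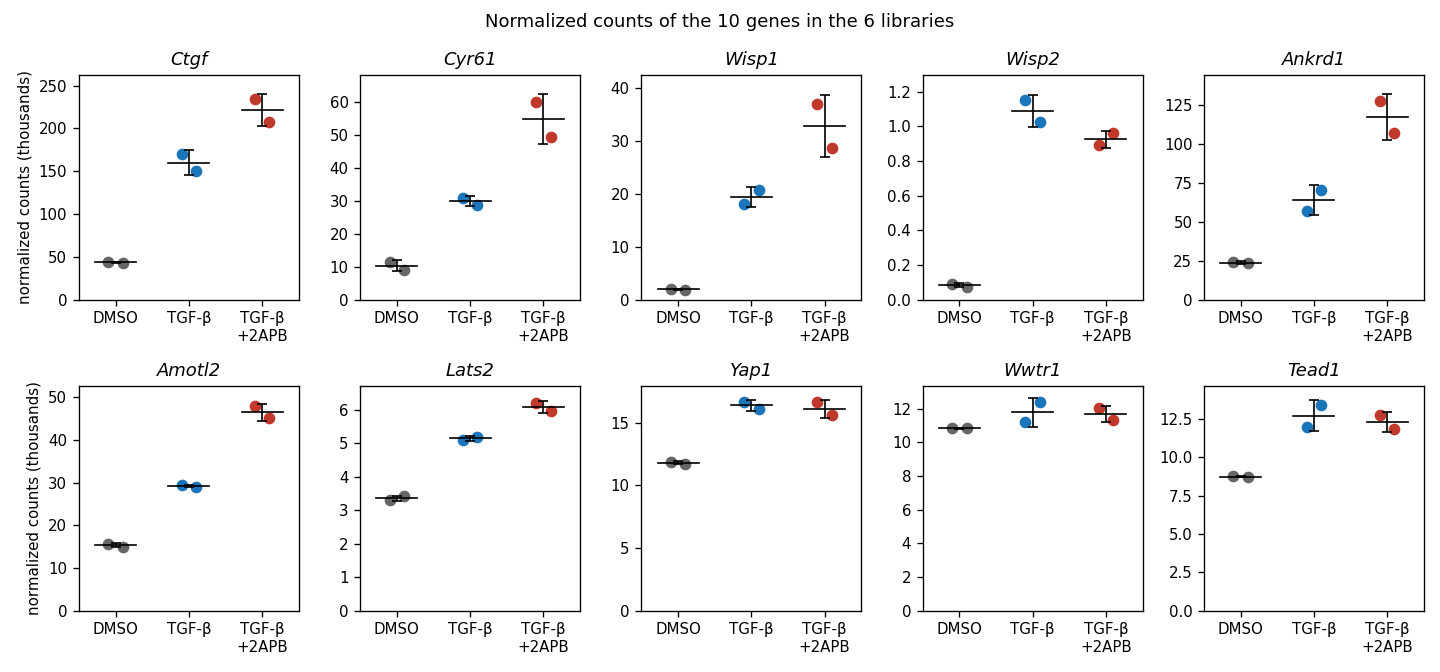
Normalized counts (linear axis from 0, in the units each axis gives) of the 10 genes in each of the 6 libraries (points), with the group mean (line) and SD (bars, n = 2). The 3 groups are separate for Ctgf, Cyr61, Wisp1, Wisp2, Ankrd1, Amotl2 and Lats2, while both groups with TGF-β overlap for Yap1, Wwtr1 and Tead1. With 2 libraries per group separation is common. Between TGF-β+2APB and TGF-β, 27.0% of all tested genes were higher in both libraries and 31.0% lower. The share of all genes with 3 separate groups was not computed.

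Read over the 10 genes, TGF-β against DMSO gave 9 called higher, 0 lower and 1 (Wwtr1) not called, where 41.5% of all tested genes were called, with 21.8% of all tested genes higher and 19.7% lower. All 10 were higher in both TGF-β libraries than in either DMSO library, which held for 36.0% of all tested genes, while 36.5% were lower in both. The median log2 change of the 10 was 1.18, against -0.010 over all tested genes. Without DMSO replicate 2, Yap1 (FDR = 0.0534) and Tead1 (FDR = 0.0539) were no longer called, and without DMSO replicate 1 Tead1 (FDR = 0.0536) was not.

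TGF-β+2APB against DMSO, which shares the DMSO libraries with the comparison just given, also gave 9 genes called higher, with Wwtr1 not called (log2 0.11, 95% interval -0.09 to 0.31, FDR = 0.315), where 52.7% of all tested genes were called, with 25.6% of all tested genes higher and 27.2% lower. Again all 10 were higher in both libraries than in either DMSO library, against 42.3% of all tested genes that were higher in this way and 43.8% that were lower. Wisp1 had the largest change, 16.7-fold (log2 4.06, FDR = 3.39e-05), followed by Wisp2 at 11.2-fold (log2 3.49). The remaining CCN genes were 5.32-fold (Cyr61) and 5.09-fold (Ctgf) above DMSO. Of the other targets, Ankrd1 was 4.91-fold, Amotl2 3.04-fold and Lats2 1.81-fold higher. Yap1 was 1.37-fold and Tead1 1.41-fold higher (FDR = 0.00311 and 0.00482), and Tead1 was not called without DMSO replicate 2 (FDR = 0.0507). The median log2 change of the 10 genes was 1.95, against -0.0032 over all tested genes.

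TGF-β+2APB against TGF-β, which shows 2APB only in the presence of TGF-β, gave 5 genes called higher (Ctgf, Cyr61, Wisp1, Ankrd1 and Amotl2), 0 lower and 5 not called. Of all tested genes 17.5% were called in this comparison, 6.58% higher and 10.9% lower. In 6 of the 10 both libraries with 2APB exceeded both with TGF-β alone (27.0% of all tested genes), and in 1, Wisp2, both lay under them (31.0%). The median log2 difference of the 10 was 0.35, against -0.0036 over all tested genes. These 5 calls differed in how far they held in the alternative fits. Amotl2 was called in all 14 alternative fits, and Cyr61 and Ankrd1 in 13, each being lost without TGF-β+2APB replicate 1 (FDR = 0.0764 and 0.0511). Ctgf and Wisp1 were called in 9 of 14, and both were lost in the fit of only the 4 libraries compared and when either DMSO replicate was left out. Ctgf was also lost when either TGF-β+2APB replicate was left out, and Wisp1 without TGF-β+2APB replicate 1 and in 1 further fit. Fewer of the 10 were called when either TGF-β+2APB replicate or either DMSO replicate was left out. The DMSO libraries are not compared here and enter only through the shared scaling, filter and fit. Calls over all tested genes also varied with the library left out.

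**Figure D3:**
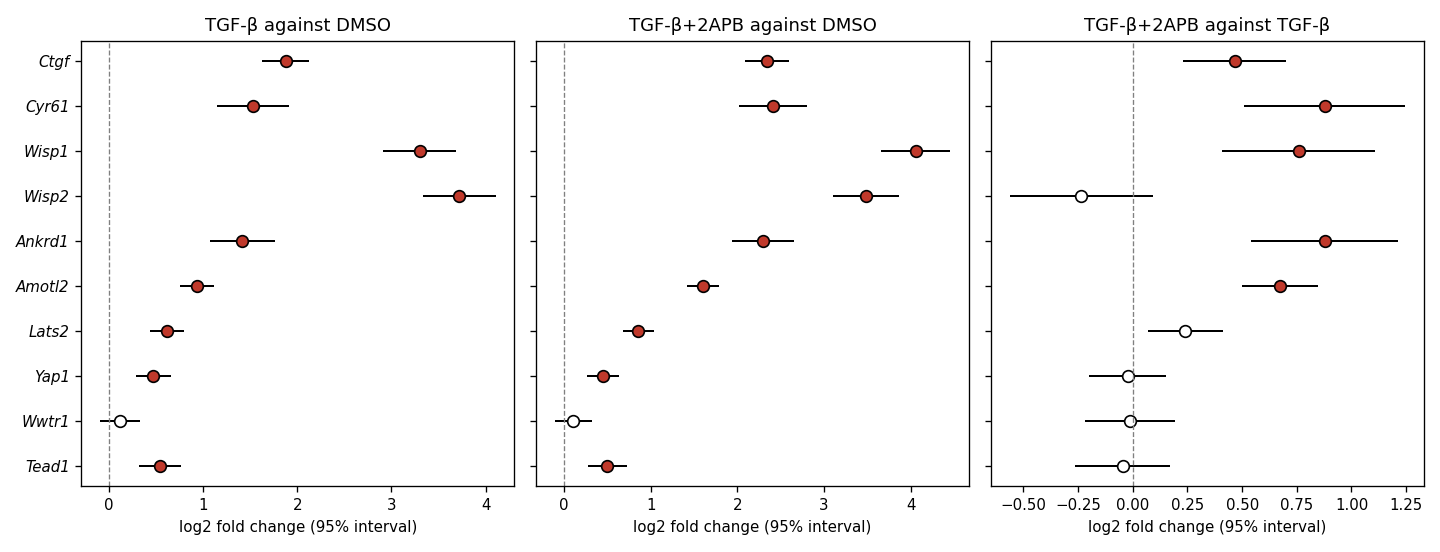
Log2 fold changes of the 10 genes in the 3 comparisons, with 95% intervals that are not adjusted for the number of genes (filled points, FDR of 0.05 or less; open points, not called; the axes of the panels differ). Wwtr1 is open in every panel, and 5 genes are filled between TGF-β+2APB and TGF-β.

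Levels were compared between genes as normalized counts per kilobase of annotated exon. The length took all annotated exons of a gene together, and the order between genes depends on it. Which transcript forms were present was not tested. In DMSO, Ctgf was the most abundant of the 10 at 15296 and 15126 per kilobase, followed by Ankrd1 (8477 and 8104) and Cyr61 (5699 and 4507). Amotl2, Wwtr1, Yap1, Tead1 and Lats2 came next in that order, and Wisp1 (361 and 347) and Wisp2 (47.0 and 38.7) were last. No neighbours in this order had overlapping replicate values. Ctgf in DMSO lay above 98.8% of the 13201 tested genes with an annotated length, and it lay above 99.8% in both groups with TGF-β. With TGF-β, Wisp1 moved from rank 9 to rank 5 among the 10, at 3251 and 3725 per kilobase, and from above 43.8% of all these genes to above 92.6%, or 96.1% with TGF-β+2APB. Wisp2 was last in each group, above 16.4% of all these genes with DMSO, 55.9% with TGF-β and 52.4% with TGF-β+2APB. In TGF-β+2APB the order was that of TGF-β, and only Tead1 (941 and 874) and Lats2 (889 and 854) overlapped.

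The makeup of each gene family, as the share of its summed level per kilobase, is given as a description with no test (mean ± SD, n = 2). Ctgf remained the bulk of the CCN transcripts, at 73.5% ± 2.89 with DMSO, 74.8% ± 1.25 with TGF-β and 69.8% ± 1.18 with TGF-β+2APB. Wisp1 took 1.71% ± 0.0341 with DMSO, 4.69% ± 0.789 with TGF-β and 5.30% ± 0.406 with TGF-β+2APB. The summed level of the 4 genes was 21402 and 20018 per kilobase with DMSO, 78696 and 70999 with TGF-β alone, and 118903 and 102821 with TGF-β+2APB. Of the YAP and TAZ pair, Wwtr1 had the larger share per kilobase in every library. This share was 64.0% ± 0.316 with DMSO, 58.2% ± 2.39 with TGF-β and 58.4% ± 0.106 with TGF-β+2APB. In normalized counts Yap1 was above Wwtr1 in every library. The order of the pair thus rests on the exon lengths, 9.257 kb for Yap1 and 4.779 kb for Wwtr1. Tead1 made up 20.5%, 21.1% and 18.2% of the TEAD transcripts in the order DMSO, TGF-β, TGF-β+2APB, while Tead2 made up 49.95%, 64.3% and 71.3% and Tead4 19.2%, 6.34% and 4.69%. Of the LATS pair, Lats2 made up 28.8%, 38.9% and 38.2% in the same order, with the TGF-β replicates at 42.3% and 35.5%. In the angiomotin family Amotl2 was 55.2% with DMSO, 71.4% with TGF-β and 78.0% with TGF-β+2APB, and Amot, its founding member, 30.1%, 6.11% and 4.33%.

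**Figure D4:**
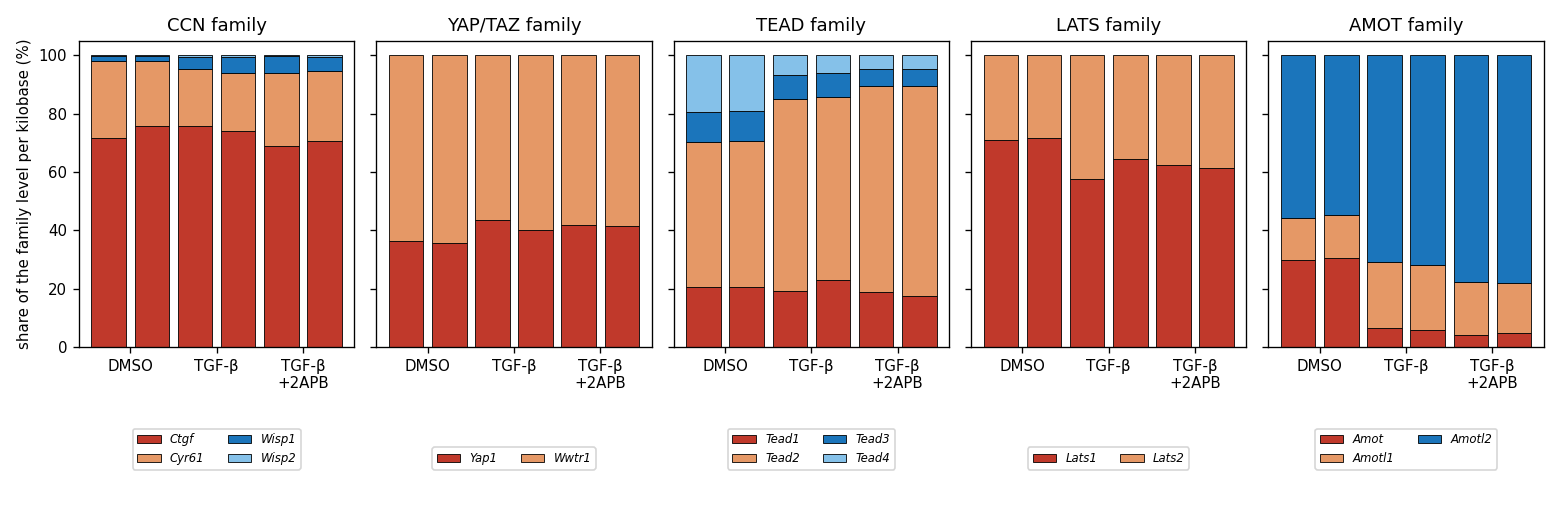
Share of each gene in the summed level per kilobase of its family (percent), 1 bar per library in the order replicate 1 and 2 of DMSO, TGF-β and TGF-β+2APB. Amotl2 and Tead2 take a larger part of their families in every library with TGF-β than with DMSO, and Ctgf is the largest part of the CCN family in all 6 libraries.

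The other components of the Hippo cascade moved in both directions with TGF-β. Of 18 kinases, adaptors and regulators, 7 were called higher than with DMSO and 5 lower, 66.7% of the list where 41.5% of all genes tested were called, 21.8% higher and 19.7% lower, and the median log2 change was -0.03. The largest rises were of Frmd6, an upstream FERM domain protein (log2 2.01, FDR = 8.10e-05), Amotl1, an angiomotin (log2 1.18), Ajuba, a LIM protein that inhibits LATS (log2 0.77), and Wwc2, a relative of Kibra (log2 0.76). The largest falls were of Amot (log2 -1.74, FDR = 0.000133) and Wwc1, the gene of Kibra itself (log2 -1.23). Mob1b, a LATS cofactor (log2 -0.65, FDR = 0.0447), and the upstream kinase gene Taok3 (log2 -0.59, FDR = 0.00245) came next. Mob1b had 2816 and 4308 normalized counts in the TGF-β libraries, farther apart than the DMSO pair. Lats1, the partner of Lats2, had a log2 difference of -0.02 (95% interval -0.40 to 0.36, FDR = 0.930). With either DMSO replicate left out, fewer of the 18 were called, and fewer of all tested genes were called as well.

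TGF-β+2APB against DMSO called 7 of the 18 higher and 6 lower, 72.2% of the list where 52.7% of all genes tested were called, 25.6% higher and 27.2% lower, with a median log2 change of 0.23. Frmd6 (log2 2.40), Amotl1 (log2 1.38), Wwc2 (log2 1.19) and Ajuba (log2 1.04) rose most, while Amot (log2 -1.69), Wwc1 (log2 -1.69), Limd1, another LIM protein (log2 -0.73), and Taok3 (log2 -0.72) fell most. Between TGF-β+2APB and TGF-β, 2 of the 18 were called higher, Wwc2 (log2 0.43, FDR = 0.0203) and Frmd6 (log2 0.40, FDR = 0.0294), and 4 lower. The latter were Sav1, the scaffold of the MST kinases (log2 -0.45, FDR = 0.0133), Wwc1 (log2 -0.45), Limd1 (log2 -0.35) and Taok2 (log2 -0.31). These 6 calls were 33.3% of the list, with a median of 0.11, where 17.5% of all genes tested were called, 6.58% higher and 10.9% lower. These calls were lost when any 1 replicate of DMSO or of TGF-β+2APB was left out, and more were made without TGF-β replicate 2. Calls over all tested genes also varied with the library left out.

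Of the TEAD and VGLL factors other than Tead1, 5 of 7 were in the table and all 5 were tested. With TGF-β against DMSO, Vgll3, a cofactor that binds TEAD (log2 3.23, FDR = 0.000176), and Tead2 (log2 0.87, FDR = 0.000753) were higher and Tead4 (log2 -1.09, FDR = 0.000991) was lower, with a median of 0.26, in a comparison that called 41.5% of all genes tested. Vgll3 had normalized counts of 252 and 267 in the DMSO libraries, 2095 and 2782 in those with TGF-β, and 4707 and 3719 in those with TGF-β+2APB, in groups that did not overlap. TGF-β+2APB against DMSO called 3 higher, Vgll3 (log2 4.02), Tead2 (log2 1.18) and Vgll4 (log2 0.71), and 1 lower, Tead4 (log2 -1.37), with a median of 0.71, where 52.7% of all genes tested were called. Between TGF-β+2APB and TGF-β, Vgll3 (log2 0.79, FDR = 0.0325) and Vgll4, which competes with YAP for TEAD (log2 0.45, FDR = 0.0217), were higher and Tead3 (log2 -0.34, FDR = 0.0278) was lower, with a median of 0.31, where 17.5% of all genes tested were called. The 3 calls of the last comparison were lost when either DMSO replicate or TGF-β+2APB replicate 1 was left out. Fewer were made without TGF-β+2APB replicate 2. Without TGF-β replicate 2, more were made in the last comparison and between TGF-β and DMSO. Calls over all tested genes varied with the library left out too.

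A list of 17 further genes known as YAP and TAZ targets was read in the same way, and several of its genes are also known to respond to TGF-β. With TGF-β against DMSO, 11 were called higher and 1 lower, 70.6% of the list, with a median log2 change of 0.56, where 41.5% of all genes tested were called, 21.8% higher and 19.7% lower. Nt5e, the gene of the ectonucleotidase CD73 (log2 4.24, FDR = 7.25e-05), Igfbp3, an insulin-like growth factor binding protein (log2 1.91), Foxf2, a forkhead factor (log2 1.58), and Gadd45a, a stress response gene (log2 1.49), rose most. Fjx1, a homologue of the fly gene Fj, was the 1 that fell (log2 -0.87, FDR = 0.00449). TGF-β+2APB against DMSO again called 11 higher and 1 lower, with a median of 0.69, where 52.7% of all genes tested were called, 25.6% higher and 27.2% lower. The rises were led by Nt5e (log2 4.04), Gadd45a (log2 3.27), Ccdc80 (log2 3.10) and Igfbp3 (log2 2.98), with Fjx1 lower (log2 -1.77). Ccdc80 was low in every library, with normalized counts of 19.7 and 10.3 in the DMSO libraries, 40.9 and 49.8 in those with TGF-β, and 65.4 and 193 in those with TGF-β+2APB, and its highest value was in TGF-β+2APB replicate 2, the library with the high immune markers.

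Between TGF-β+2APB and TGF-β, 5 of the 17 were called higher, 1 was lower and 11 were not called, 35.3% of the list, with a median of 0.15, where 17.5% of all genes tested were called, 6.58% higher and 10.9% lower. Gadd45a had the largest difference, with normalized counts of 1974 and 1856 in the DMSO libraries, 5104 and 5691 in those with TGF-β, and 20354 and 16622 in those with TGF-β+2APB (log2 1.78, FDR = 0.00307). The ligand gene Tgfb2 (log2 1.10, FDR = 0.00958), Igfbp3 (log2 1.07), the phosphatase gene Ptpn14, whose product binds YAP (log2 0.53), and the kinase gene Nuak2 (log2 0.37, FDR = 0.0452) followed, the last being outside the 4 with the largest rise and named to complete the 5. Fjx1 fell with 2APB as well (log2 -0.90, FDR = 0.0123). More of the 17 were called without TGF-β replicate 2, while calls over all tested genes also varied with the library left out.

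**Figure D5:**
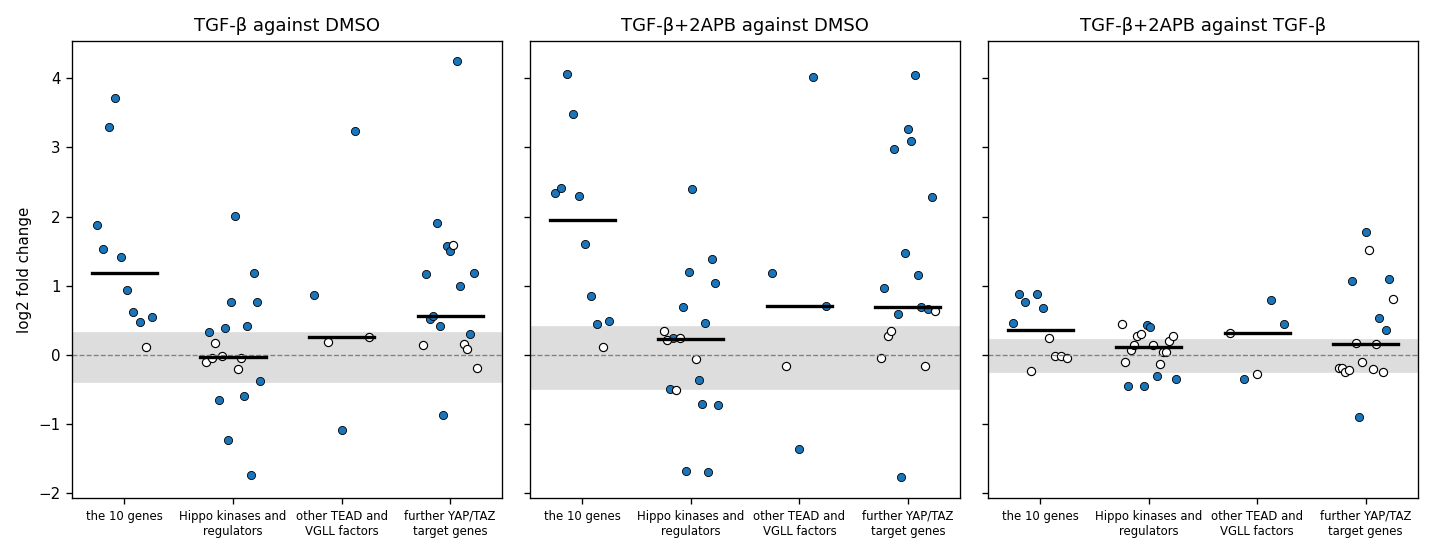
Log2 fold changes of the 10 genes and of the 3 pathway lists in the 3 comparisons (filled, FDR of 0.05 or less; open, not called), with the median of each list (line) and the middle 50% of all tested genes (grey band). The further targets lie mostly above 0 with TGF-β against DMSO, and the Hippo components lie on both sides of it.

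The genes whose pattern over the 6 libraries was most like that of Ctgf, by Euclidean distance between log2 normalized counts centred on the DMSO mean, were Fkbp5 (distance 0.0923), Metrnl (0.0947) and Pdlim1 (0.158), among 12477 candidates. Tested genes with date names, symbols ending in Rik, or symbols of Gm and a number were left out of this search. Fkbp5, which encodes an immunophilin, was 1.90 above DMSO on this log2 scale with TGF-β and 2.34 above it with TGF-β+2APB. The nearest to Cyr61 were Wbscr27 (0.216), Bhlhe40 (0.242) and Lrp12 (0.302), of which Bhlhe40 encodes a transcriptional repressor. No other member was among the 3 nearest genes of either. The points share their libraries, so this likeness is a description.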

How the data were processed

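RNA-seq of 6 libraries (3 groups of 2) was analysed. By the study's methods, FastQC 0.11.2, TopHat2 2.0.13 and featureCounts were run by the authors on single-end reads. What they deposited are whole-number counts for each gene. The submitters' processing notes name the build mm10 and DESeq2 1.6.1, and the methods name hg19, although the symbols are mouse symbols. The annotation, the strand setting and the handling of reads with several alignments are not given in the sources used here. All deposited counts were even, and the smallest nonzero count was 2. The library totals exceeded the average number of reads per sample that the methods give. Whether the counts were scaled before deposit is not known and was not tested. A spreadsheet had turned 25 of the 18512 names into dates, and these entries were kept in the fits.

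The tools were R 4.3.3 and edgeR 4.0.16. Libraries were scaled by TMM, genes under a mean of 20 normalized counts were left out, and the 3 groups entered 1 quasi-likelihood fit with no covariates. Benjamini-Hochberg FDR values of 0.05 or less were called. Intervals are 95% intervals of that fit for single genes. No pair of libraries held identical values. Gene positions and exon lengths came from a GENCODE annotation of GRCm38 and promoters from RefSeq (GRCm38.p6).

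The 10 genes, the pathway lists, the TGF-β response list, the marker lists of 5 cell types and the tests were chosen with earlier results of these data known. Genes named are the 10, the markers, of each list up to 4 called genes with the largest rises and 4 with the largest falls per comparison, and the 3 nearest to Ctgf and to Cyr61 by pattern. Lats1 and Nuak2 were named outside this rule after their values were seen. Of the response list, 1 gene is not reported.

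The alternatives were DESeq2 1.42.0, RLE or library size scaling, no count filter, a minimum of 10 counts per library, a block for the replicate number, fits of the 4 libraries compared, halved counts, and each library left out in turn. A block with crossed numbers was added after the data had been seen. The procedure was tested on simulated data. Reads are not independent molecules, so the depth per library bears on counting error alone.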

Additional observations from a re-analysis of the deposited data

How the results depend on the processing

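Among the 10 genes, no called difference turned its direction under any alternative. For other genes only the counts of calls were recomputed. With 2APB added to TGF-β, the log2 differences of Yap1 (-0.10 to 0.02), Wwtr1 (-0.09 to 0.06) and Tead1 (-0.13 to 0.04), which were not called in any fit, took both signs. For single genes among the 10, 432 recomputed values kept their side of the threshold, 16 were lost and 2 gained a call. For TGF-β+2APB against TGF-β, DESeq2 called 3646 genes in place of 2335, and 5 in place of 3 TEAD and VGLL factors between TGF-β and DMSO. In the fit of only the 4 libraries compared, TGF-β+2APB against TGF-β gave 860 genes, 3 of the 10, 0 Hippo components and 0 TEAD and VGLL factors, whereas TGF-β+2APB against DMSO gave 9013 genes in place of 7044 and 17 Hippo components in place of 13. The cause of these differences was not tested.

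With each library left out in turn, calls over all genes ran from 2753 to 7640 (TGF-β against DMSO), 4354 to 9006 (TGF-β+2APB against DMSO) and 834 to 5405 (TGF-β+2APB against TGF-β). In that order of comparisons the calls among the 10 genes ran from 7 to 9, 8 to 9 and 1 to 6, those of the Hippo list from 7 to 15, 11 to 17 and 0 to 12, those of the TEAD and VGLL factors from 3 to 5, 4 to 5 and 0 to 5, and those of the further targets from 8 to 14, 11 to 14 and 4 to 12. A group left with 1 library was assumed to vary like the others.

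Whether the replicate numbers pair the libraries is not given in the sources used here. The replicate differences of DMSO correlated with those of TGF-β at r = 0.147 and with those of TGF-β+2APB at r = -0.458. Those of both groups with TGF-β correlated at r = -0.255. With the replicate number as a block, TGF-β+2APB against TGF-β gave 1343 genes, 4 of the 10 (Wisp1 at FDR = 0.0506), 2 Hippo components and 1 TEAD or VGLL factor, and 9 of the 10 were called against DMSO in both other comparisons. A block with the numbers of TGF-β+2APB exchanged, chosen after seeing the data, gave 5706, 7232 and 2465 genes and 9, 9 and 5 of the 10. The lowest count of the 10 genes was 72 (Wisp2), whereas Nov and Wisp3 were too low to test. Whether depth bore on the calls was not tested.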
